A study of Homo sapiens with 2 samples.

Results

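The clusters described here are the transcript clusters of an Affymetrix whole-transcript array that carry more than 1 gene name. A transcript cluster is the array's unit of measurement: all probes placed on 1 transcribed locus are summarised into 1 value. The platform's annotation gave 1543 of the 67528 transcript clusters 2 or more gene symbols, which is 6.09% of the 25324 clusters with any symbol. The other 23781 annotated clusters carried 1 symbol. The rule for members used the annotation alone and no measured value, though it was set with earlier results of these data known.

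The cells were those of 769-P, an established human line labelled as clear-cell renal cell carcinoma, non-metastatic. 1 array was hybridised with RNA of cells that carried the empty lentiviral vector plv-EGFP, and 1 array with RNA of cells that carried pLV-EGFP-FOXK2, the same vector with the full-length coding sequence of FOXK2, a forkhead transcription factor. Both groups had thus received a lentivirus with EGFP and a puromycin resistance gene, and the labels do not say whether the cells were 1 clone. The comparison addresses which transcripts differ when FOXK2 is overexpressed. With 1 array per group there is no test, no error and no replicate check, and the number of arrays limits the precision of every difference. FOXK2's own cluster stood at 9.36 with the empty vector and at 13.82 with FOXK2, and vector-derived and cellular FOXK2 cannot be told apart in it. All 7 measured kidney epithelial markers lay above the level limit defined below, and none of the 3 leukocyte, 3 endothelial and 4 fibroblast markers did.

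A locus can carry several names for different biological reasons. Small nucleolar RNAs guide the chemical modification of ribosomal and spliceosomal RNA. In humans most of them, like many microRNAs, are cut out of introns of a host gene, so both names can stand on 1 cluster. Whether such a cluster has probes on the small RNA itself is not known here. Recent segmental duplications and tandem arrays, such as those of histone, complement C4 and HSPA1 genes, give copies whose sequences are so alike that probes may not separate them. Readthrough transcripts join neighbouring genes into 1 RNA, and some clusters simply list an older and a newer name of 1 gene.

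The near-identity of copies extended past the transcripts in some families. The 120 bases before the start of HSPA1A (chr6:31815423-31815542, plus strand) and of HSPA1B (chr6:31827618-31827737, plus strand), heat shock protein genes that share clusters here, are shown to let a reader compare a pair of copies. Capitals mark the bases that differ, or have no partner, in a global alignment of these windows. The first base of HSPA1B and the last of HSPA1A have no partner because the windows are offset by 1 base.
HSPA1A: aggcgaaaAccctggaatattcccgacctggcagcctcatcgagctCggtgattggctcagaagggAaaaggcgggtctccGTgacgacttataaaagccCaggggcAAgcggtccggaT
HSPA1B: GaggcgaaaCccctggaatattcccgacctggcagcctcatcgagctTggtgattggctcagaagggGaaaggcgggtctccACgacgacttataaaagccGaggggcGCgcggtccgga
Over the 250 bases before the start, 235 of 251 aligned positions were identical (93.6%). Both windows hold the motif GAANNTTC, the core of a heat shock element, on either strand, which 5.78% of all 35116 promoter windows of that length held. Both also hold TATAAA, found in 10.7% of the windows. The histone H4 genes H4C14 (chr1:149832537-149832656, plus strand) and H4C15 (chr1:149861160-149861279, minus strand) lie on opposite strands, and their 250 bases before the start were identical at 250 of 250 positions, so 1 stretch of 120 bases, with no capitals since nothing differs, stands for both. This pair is not typical of its set, in which 66 pairs of 12 H4 promoters had a median identity of 51.2%.
H4C14: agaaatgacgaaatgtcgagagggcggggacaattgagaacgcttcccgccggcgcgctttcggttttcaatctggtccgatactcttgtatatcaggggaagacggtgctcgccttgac
All sequences are RefSeq's for GRCh38.p14 and read 5′ to 3′. Among 167 gene sets of copies with at least 2 promoters in that table, the median identity of the 250 bases was 75.4% (quartiles 50.1% and 98.8%), 63 sets reached 90% and 33 were identical. Among 79 sets of unlike genes the median was 50.5%, and 12 of these shared a start.

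MicroRNAs gave the shortest members. RefSeq listed mature sequences for 247 of the 275 microRNA names in the clusters. The mature forms below belong to the clusters whose values are described later; capitals mark the seed, bases 2 to 8, which pairs with target RNAs.
hsa-miR-664b-3p: uUCAUUUGccucccagccuaca
hsa-miR-664a-3p: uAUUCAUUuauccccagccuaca
hsa-miR-3651: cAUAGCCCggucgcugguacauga
hsa-miR-4785: aGAGUCGGcgacgccgccagc
hsa-miR-548n: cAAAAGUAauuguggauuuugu
hsa-miR-21-5p: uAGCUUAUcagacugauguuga
hsa-miR-1244: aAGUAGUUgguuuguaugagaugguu
hsa-miR-338-3p: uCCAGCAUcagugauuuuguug
hsa-miR-3065-5p: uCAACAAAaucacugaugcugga
The paralogues miR-664b-3p (chrX:154768635-154768656, plus strand) and miR-664a-3p (chr1:220200549-220200571, minus strand) differ in their seeds. No seed is shared among these 9. The last pair lies on opposite strands of 1 locus: all 22 bases of miR-338-3p (chr17:81125887-81125908, minus strand) are complementary to a stretch of miR-3065-5p (chr17:81125886-81125908, plus strand), which is 23 bases long. Of 53 gene sets with 2 or more microRNAs, 27 had a seed common to all their microRNAs. In 20 a whole mature sequence was common to all, as in MIR1244-1 and MIR1244-2.

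Sorting by name gave 8 classes. 587 clusters held copies of 1 family, 249 a small RNA with another gene, 125 only small RNAs, 87 a readthrough name, 50 a gene with an antisense, intronic or divergent RNA, 46 a family with an outsider, 128 a named gene with an uncharacterized locus and 271 other unlike names. In 253 clusters the names resolved to 1 gene under several names once symbols were updated, among them 124 of the 271 clusters of unlike names. 1105 clusters held 2 symbols, 248 held 3 and 190 held 4 or more, up to 16. Because sets of genes recur on several clusters, the 1543 clusters stood for 1147 distinct sets.

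Most sets lay together on the genome. Of 956 sets with at least 2 genes in RefSeq, 872 (91.2%) had all genes on 1 chromosome and 362 (37.9%) were direct neighbours. Small RNAs and the genes named with them were neighbours in 163 of 230 sets, and copies in 34 of 337 sets. A pseudogene took part in 165 sets, 81 of them copies. By the clusters' identifiers, 153 clusters lay on chromosome 1 and 128 on chromosome X, and 138 lay on 7 alternate haplotypes of the major histocompatibility complex, which repeat the same genes.

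Levels are the authors' deposited log2 values, and a difference is the FOXK2 value minus the empty vector value, so a difference of 1 is 2-fold. A cluster was read only where its mean over both arrays reached 5.24, the median of the clusters with 1 symbol; whether a value lies above background is not known. 840 of the 1543 clusters (54.4%) reached this level limit and 703 did not. The class of small RNAs with another gene reached it most often, in 196 of 249 clusters (78.7%), and copies and partial families least often, in 229 of 587 (39.0%) and 17 of 46 (37.0%). The copies below the limit included all 11 clusters of USP17L deubiquitinase genes, all 18 clusters of the DUX stem, which holds the DUX4 double homeobox genes, and all but 2 of the 66 clusters of cancer-testis genes.

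**Figure D1:**
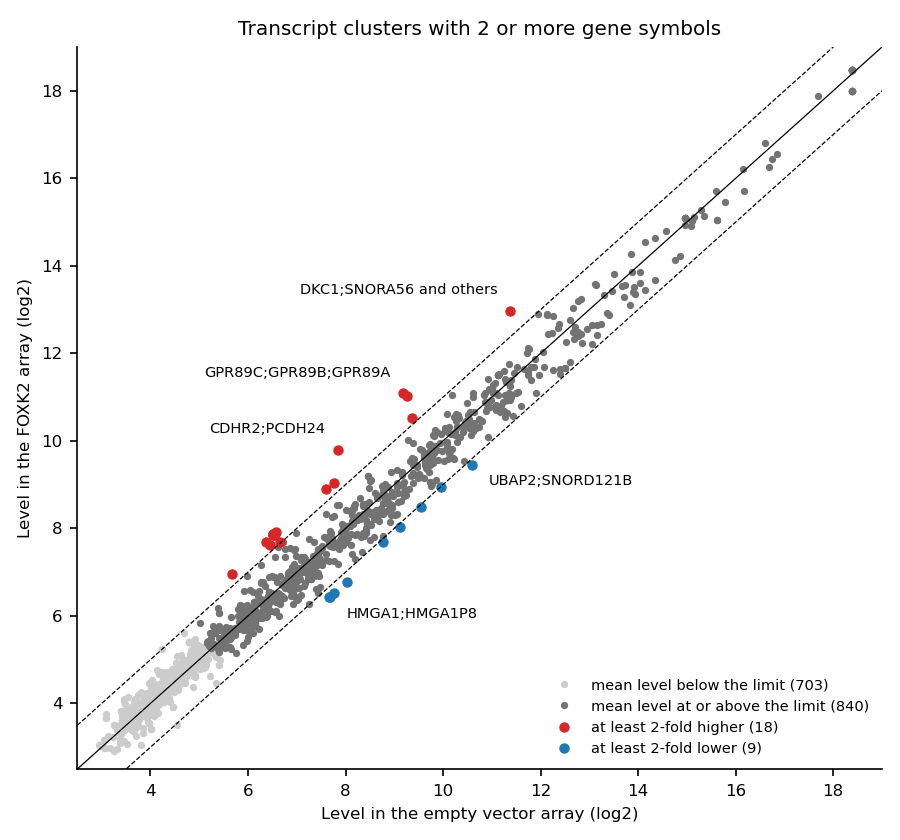
Level of each of the 1543 clusters in the empty vector array (x axis, log2) and in the FOXK2 array (y axis, log2). Each point is a cluster; the solid line marks equal levels and the dashed lines a 2-fold difference. 18 clusters lie above the upper dashed line and 9 below the lower one among the 840 that reached the level limit.

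Differences were small in most clusters. Over the 840 clusters the median difference was -0.07, with quartiles of -0.32 and 0.13, and the extremes were -1.25 and 1.94. In the clusters with 1 symbol the median was -0.05 and the extremes were -4.20 and 5.68. 83.9% of the multi-symbol clusters and 78.6% of the others differed by less than 0.5 in size. 475 of the 840 differences were negative and 355 positive. 18 clusters (2.14%), which stand for 8 gene sets, were at least 2-fold higher with FOXK2, beside 2.13% of all 12731 annotated clusters above the limit. 9 clusters (1.07%) of 9 gene sets were at least 2-fold lower, beside 2.88% of all annotated clusters and 3.01% of those with 1 symbol. Counted by cluster, the share of higher ones was thus near the background, and the share of lower ones was below it. The higher count rests on repeats of the same genes: with 1 value for each of 666 gene sets, 6 were higher and 9 lower. The called cluster closest to the 2-fold limit differed by 1.02 in size and the closest uncalled one by 0.98. A pair of clusters below the level limit passed 2-fold too: an H3 histone cluster led by H3C3 at 4.55 with the empty vector and 3.52 with FOXK2, and MIR509-2;MIR509-1 at 4.24 and 5.25.

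**Figure D2:**
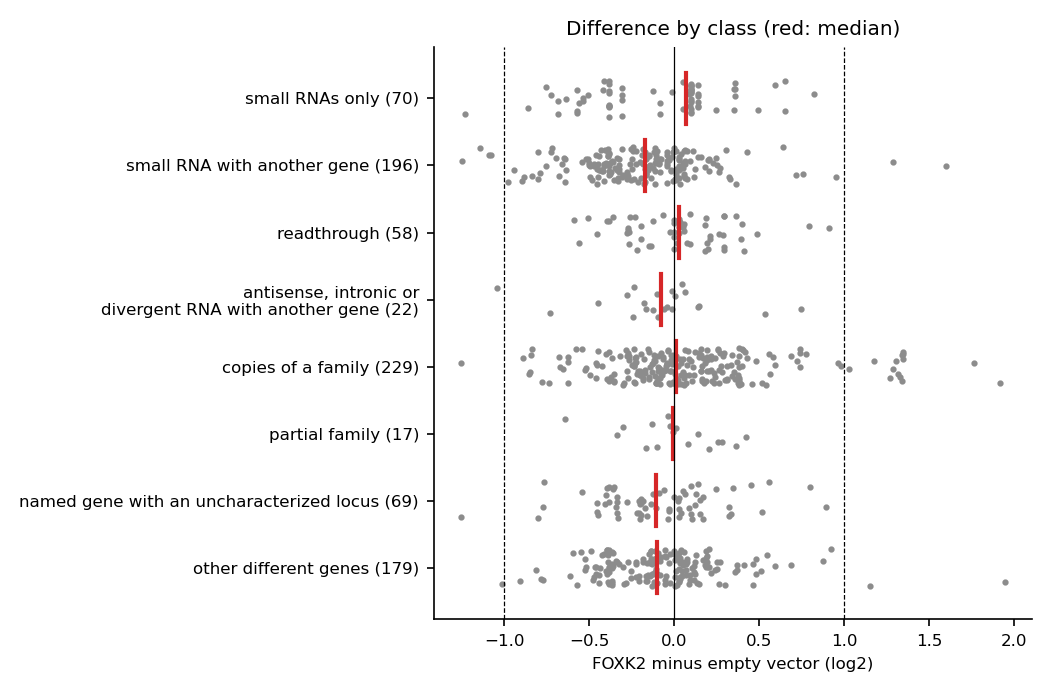
FOXK2 minus empty vector difference (x axis, log2) of the 840 clusters that reached the level limit, 1 row per class with the number of clusters in brackets. Points are clusters with random vertical spread, red bars are class medians and dashed lines mark 2-fold. The class of small RNAs with another gene has the lowest median, -0.17. Of the 229 clusters of copies, 14 are at least 2-fold higher, beside 2.13% of all annotated clusters above the limit. 9 of these 14 are repeats of the C4 genes, so the count is not one of separate genes.

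Clusters that name a small RNA with another gene lay mostly below 0. The class rests on names, and whether the other gene is the host was not checked for each cluster. Of 196 such clusters, 143 (73.0%) were lower with FOXK2, with a median of -0.17, against 55.0% and -0.05 in clusters with 1 symbol. The count differed between kinds of small RNA, which overlap because 1 cluster can name several. The NOP56 cluster counts under C/D box RNA, H/ACA box RNA and microRNA, and the DKC1 cluster under H/ACA box RNA and microRNA. The counts for ribosomal protein and SNHG genes below draw on the same 196 clusters. With a C/D box RNA, the class that guides ribose methylation, 44 of 47 clusters were lower (median -0.38); these stand for 37 gene sets, 34 of them lower, since DDX39B;SNORD84 and SNHG32;SNORD48;SNORD52 recur on alternate haplotypes. With an H/ACA box RNA, which guides pseudouridylation, 21 of 26 were lower (median -0.28), and with a microRNA 81 of 125 (median -0.13). Ribosomal protein genes were named in 21 clusters, 19 of them lower, with differences from -0.72 to 0.32. Hosts of the SNHG type, noncoding genes whose best known products are the small RNAs in their introns, were lower in 14 of 15 clusters, or 10 of 11 gene sets, with SNHG32 filling 5 clusters. After the median of each cluster's chromosome was subtracted, 130 of the 196 clusters (66.3%) and 41 of the 47 with a C/D box RNA were below 0.

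The highest cluster of this class went the other way. DKC1, the pseudouridine synthase of H/ACA particles, is named with SNORA56, SNORA36A and MIR664B, RNAs from its own introns, and this cluster on chromosome X stood at 11.38 with the empty vector and 12.98 with FOXK2, 3.02-fold higher. SNORA36B;MIR664A on chromosome 1, which holds the paralogues of SNORA36A and MIR664B, stood at 6.63 and 5.99, a difference of -0.64. Both values are those of shared clusters and not of the small RNAs alone. OSBPL6;MIR548N, named for an oxysterol-binding protein family member, stood at 5.66 and 6.95 (1.28). MIR548N is also named with DPY19L1 on chromosome 7, where RefSeq places it, and that cluster stood at 9.79 and 9.74 (-0.05).

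Lower clusters of a small RNA with another gene included RBMS1;MIR4785, named for an RNA-binding protein, at 9.12 with the empty vector and 8.03 with FOXK2 (-1.09). UBAP2;SNORD121B, named for a ubiquitin-binding protein gene on chromosome 9, stood at 10.60 and 9.46 (-1.14), and with the median of that chromosome subtracted its difference was -0.89, short of 2-fold. The NOP56 cluster holds a core protein of C/D box particles with 5 small nucleolar RNAs and MIR1292, and stood at 8.77 and 7.83 (-0.94). MIR614;GPRC5A, named for an orphan receptor, stood at 7.24 and 6.27 (-0.98). Neither of these last clusters reached 2-fold in the deposited values, though both did with the arrays centred on their medians (-1.01 and -1.04). NHERF1;MIR3615, whose protein is a scaffold of the brush border in the proximal tubule, stood at 11.94 and 12.89 (0.95).

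Another group of clusters lay in the imprinted small RNA region of chromosome 15. In this region, tied to Prader-Willi syndrome, the paternal SNRPN-SNHG14 transcript carries tandem repeats of SNORD116 and SNORD115. 24 clusters named a SNORD116 or SNORD115 repeat and 4 named only other genes of the region (SNORD64, SNORD107, SNORD108, SNORD109A, SNORD109B, PWAR5, SNRPN). All 28 were lower with FOXK2, and 11 of them, 9 with a repeat, reached the level limit, with differences from -1.25 to -0.51 and a median of -0.68. They are not 28 measurements, since they gave 18 distinct pairs of values. SNORD116-20;SNORD116-21 stood at 11.43 with the empty vector and 10.57 with FOXK2 (-0.86). SNORD64;SNORD108;PWAR5 stood at 8.78 and 7.70 (-1.08), and the cluster led by SNORD107 and PWARSN at 7.76 and 6.52 (-1.25). SNRPN;SNURF;PWARSN;SNORD107, which names the protein-coding start of the transcript, stood at 6.92 and 6.26 (-0.66). The 9 clusters with a SNORD116 name above the limit were thus all lower, while the clusters that name only SNORD115 repeats, known as brain-restricted RNAs, lay between 3.42 and 4.01 on both arrays. Chromosome 15 as a whole was lower too: its clusters with 1 symbol had a median of -0.30. With that median subtracted, all 11 clusters above the limit remained below 0 (median -0.38), and neither called cluster remained past 2-fold (-0.95 and -0.78). The part of the whole chromosome in these differences was not tested further.

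**Figure D3:**
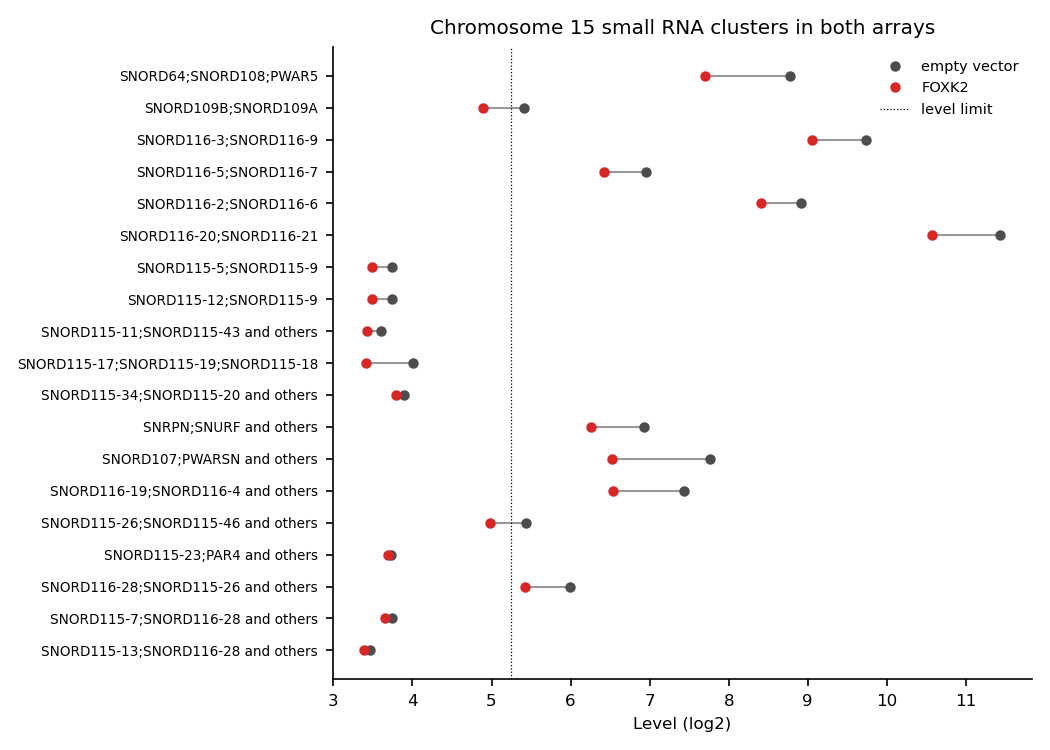
Level (x axis, log2) of the SNORD116, SNORD115 and SNRPN region clusters of chromosome 15 in both arrays, 1 line per set of names and pair of values, with identical repeats drawn once. Grey points are the empty vector array, red points the FOXK2 array and the dotted line the level limit of 5.24; every red point lies left of its grey point.

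Clusters of small RNAs only were dominated by repeats. 16 clusters of 5S ribosomal RNA genes held 1 and the same pair of values, 18.39 with the empty vector and 18.49 with FOXK2. 7 clusters of RNU1 genes, the U1 RNA of the spliceosome, also held 1 pair, 18.39 and 18.01. The class median of 0.07 over 70 clusters therefore rests on repeats: over the 31 distinct gene sets it was -0.30, with 20 sets below 0. SNORA84;MIR3651 on chromosome 9, whose microRNA overlaps the H/ACA RNA, was the only cluster of this class past 2-fold above the level limit, at 7.67 and 6.44 (-1.23). Chromosome 9 had a median of -0.25 in clusters with 1 symbol, and the difference was -0.98 with it subtracted. MIR338;MIR3065, the pair on opposite strands shown above, stood at 5.02 and 5.84 (0.82), and the names do not tell which of the microRNAs or strands was measured. RNU5E-1;RNU5D-1, U5 RNAs of the spliceosome, stood at 12.40 and 11.65 (-0.75). MIR1244-1;MIR1244-2 gave 15.63 and 15.05 on chromosomes 5 and 12 alike (-0.57). The cluster of PTMA, the prothymosin gene, which names MIR1244-1 too, differed by -0.20.

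Among copies of a family, the largest differences were those of GPR89, which encodes an anion channel of the Golgi membrane. GPR89C;GPR89B;GPR89A stood at 9.17 with the empty vector and 11.09 with FOXK2 (3.77-fold higher), and GPR89A;GPR89B at 9.26 and 11.02 (3.40-fold). GPR89B's own cluster differed by 2.06, from 8.26 to 10.32. All 3 clusters of this family thus differed in the same direction by similar amounts, and they share sequence, so they are no independent measurements.

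Complement component C4, which is needed for the classical pathway, is encoded by the neighbouring copies C4A and C4B. Their 9 clusters, 2 on the chromosome 6 of the reference and 7 on alternate haplotypes, stood between 6.36 and 6.58 with the empty vector and between 7.61 and 7.92 with FOXK2. Each was at least 2-fold higher, with differences from 1.17 to 1.35. They count as 9 of the 18 higher clusters and as 1 of the 8 higher gene sets. In 13 other sets with clusters on alternate haplotypes of the major histocompatibility complex and 2 or more clusters, all above the limit, the median range between clusters was 0.02 and the largest 0.43.

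HSPA1A and HSPA1B encode the stress-inducible HSP70, and they share 6 clusters, described beside the upstream bases printed above. These stood between 12.39 and 13.15 with the empty vector and between 11.53 and 12.41 with FOXK2, with differences from -0.85 to -0.63. Every cluster was lower with FOXK2, and no cluster reached 2-fold. The 6 clusters name the same genes on the same arrays, so they are no independent measurements. The 4 clusters of HSPA1A alone had mean values of 11.99 and 11.39 (-0.60).

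Histone clusters spread widely. 43 clusters named histone genes, which encode the proteins that package DNA and are made mainly during replication, and 31 reached the limit, 24 higher with FOXK2 and 7 lower (median 0.20). A cluster led by H4C15 and H4C16 on chromosome 1 stood at 7.76 and 9.03 (1.27), and another there with the same 14 names at 7.60 and 8.89 (1.29). H4C14 and H4C15, whose shared upstream bases are printed above, are the names of this list that RefSeq places on chromosome 1. Clusters with the same 14 names on chromosome 6 differed far less, led by H4C5 at 13.47 and 13.43 (-0.04), by H4C4 at 11.77 and 12.10 (0.33) and by H4C2 at 6.94 and 7.50 (0.56). The shared list of names therefore does not mean a shared value, and H4C3's own cluster stood at 16.01 and 16.24 (0.23). H3C6 led the H3 cluster with the largest difference above the limit, at 7.60 and 8.34 (0.74). H2BC8 led the widest of the H2B clusters, at 9.29 and 10.01 (0.72).

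**Figure D4:**
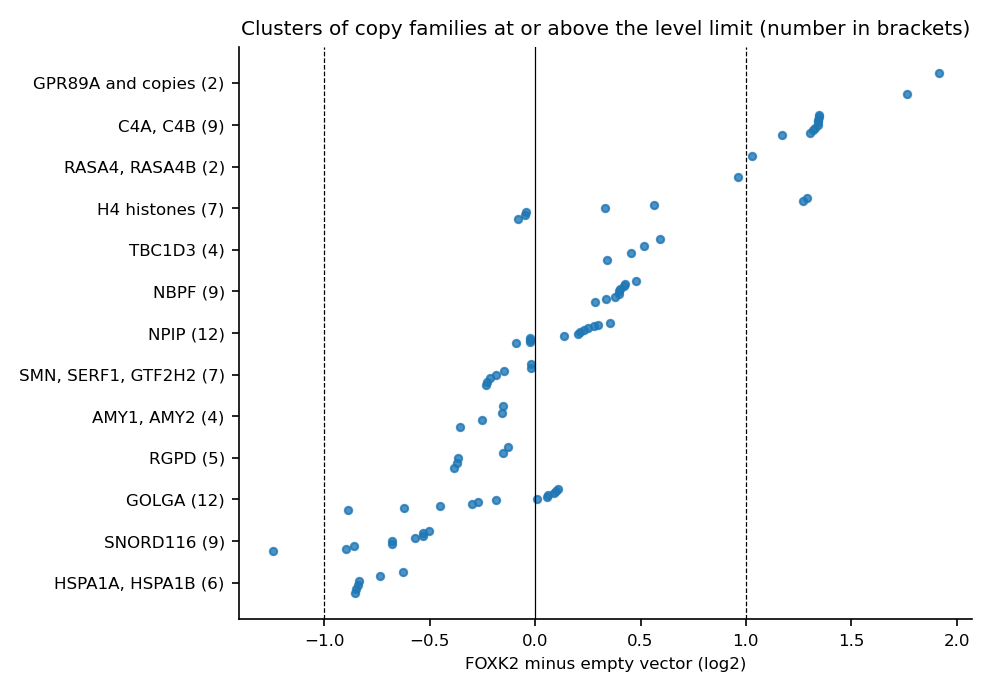
FOXK2 minus empty vector difference (x axis, log2) of each cluster above the level limit that names a gene of 13 copy families, with the number of clusters in brackets. Some clusters also name unlike genes, as that of AMY2B does. Points are clusters, set apart vertically in order of value; dashed lines mark 2-fold. C4, NBPF and TBC1D3 clusters all lie above 0, RGPD, AMY, SMN region, SNORD116 and HSPA1 clusters all below, and H4 clusters run from -0.08 to 1.29.

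Segmental duplicates formed tighter groups. 9 clusters of NBPF genes, a primate-expanded family on chromosome 1, differed by 0.28 to 0.48, all positive, and 4 TBC1D3 clusters, hominoid duplicates on chromosome 17, by 0.34 to 0.59. All 7 clusters of the SMN region, which holds the survival of motor neuron genes SMN1 and SMN2 with SERF1 and GTF2H2 copies, were slightly negative, from -0.23 to -0.02. The 5 RGPD clusters, duplicates derived from the nuclear pore gene RANBP2, ran from -0.39 to -0.13. The 3 clusters of the amylase copies AMY1A, AMY1B and AMY1C ran from -0.36 to -0.15. AMY2B is named with the unlike genes RNPC3 and ACTG1P4, in a cluster that differed by -0.25. GOLGA golgin copies were mixed, 6 of 12 positive, with GOLGA8B;GOLGA8A at 10.42 and 9.53 (-0.89) as the largest. That cluster lies on chromosome 15, whose clusters with 1 symbol had a median of -0.30. NPIP clusters, nuclear pore interacting duplicates of chromosome 16, ran from -0.09 to 0.35. RASA4B;RASA4, copies of a Ras GTPase-activating protein named here after its values were seen, stood at 6.66 and 7.69 (1.03), and its twin RASA4;RASA4B at 6.61 and 7.58 (0.96). PPIAL4D;PPIAL4F, cyclophilin copies, stood at 8.46 and 9.20 (0.74), and ANKRD36;ANKRD36C, ankyrin repeat copies, at 12.13 and 12.90 (0.77). The only copies at least 2-fold lower were HMGA1;HMGA1P8, an architectural chromatin protein gene and its pseudogene, at 7.68 and 6.42 (2.39-fold).

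Among kidney and transporter genes, the 9 UGT1A names, glucuronosyltransferases that share their last exons, shared 1 cluster at 11.45 and 11.55 (0.10). MRPS6;SLC5A3, a mitochondrial ribosomal protein gene with the myo-inositol transporter nested in it, stood at 6.98 and 7.90 (0.92). The 6 HLA clusters, all HLA-DRB copies, lay below the limit, between 4.51 and 4.61 in mean level.

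Readthrough clusters held no call in either direction, beside 2.13% called higher and 2.88% called lower among all annotated clusters above the limit. At such shares 58 clusters are too few for the absence to mark the class. Over 58 clusters above the limit the median was 0.03, with 22 negative. CCL14;CCL15;CCL15-CCL14, neighbouring chemokine genes, had the largest difference, 5.99 and 6.90 (0.91), followed by CYP3A7;CYP3A7-CYP3A51P, a fetal drug-metabolising cytochrome, at 6.56 and 7.36 (0.80). On the negative side stood AP3S2;ARPIN-AP3S2, a subunit of the AP-3 adaptor, at 10.20 and 9.61 (-0.59, or -0.29 with the median of chromosome 15 subtracted). DDX39B;ATP6V1G2-DDX39B;BAT1, an RNA helicase of mRNA export, stood at 13.24 and 12.67 (-0.56) on an alternate haplotype.

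In clusters that add an antisense, intronic, overlapping or divergent RNA, 15 of 22 were negative (median -0.08). APOBEC3B;APOBEC3B-AS1, a DNA cytidine deaminase with its antisense RNA, stood at 9.54 and 8.50 (-1.04). SOD2;SOD2-OT1, the mitochondrial superoxide dismutase, stood at 12.14 and 12.89 (0.75). USP6NL;USP6NL-IT1, a RAB GTPase-activating protein, stood at 9.05 and 8.32 (-0.73, or -0.49 with the median of chromosome 10 subtracted). PI4K2B;SEPSECS-DT, a phosphatidylinositol kinase, stood at 7.72 and 8.25 (0.54). Which strand gave these values is not known here.

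Partial families, 17 clusters above the limit, held no call and had a median of -0.01. Beside 2.13% called higher and 2.88% called lower among all annotated clusters, 17 are too few for that absence to mark the class. AKAP2;PALM2;PALM2AKAP2, a kinase anchor protein locus, differed most, at 7.01 and 6.37 (-0.64, or -0.39 with the median of chromosome 9 subtracted). Among 69 clusters with an uncharacterized locus (median -0.11), LINC00673;LINC00511, long noncoding RNAs neighbouring on chromosome 17, were lowest at 8.03 and 6.78 (-1.25). PCSK6;LOC100507472, a proprotein convertase, stood at 6.26 and 7.15 (0.89, or 1.19 with the median of chromosome 15 subtracted). SLC35F6;C2orf18 stood at 11.90 and 11.10 (-0.80), and LINC00862;SMIM16;C1orf98 at 5.39 and 6.18 (0.80). In each of the last pair of clusters at least 1 name is an older one of another in the list.

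The remaining unlike names, 179 clusters above the limit with a median of -0.10, held the largest difference of all. CDHR2;PCDH24 names 1 gene under its current and older symbols, a protocadherin that links brush border microvilli, and stood at 7.85 with the empty vector and 9.79 with FOXK2, 3.85-fold higher. It was the only called cluster that resolved to 1 gene. FBXO17;SARS2, an F-box protein gene and, on the same chromosome, the mitochondrial seryl-tRNA synthetase gene, stood at 9.36 and 10.51 (1.15). CYTOR;MIR4435-2HG, paralogous long noncoding RNAs, stood at 9.96 and 8.95 (-1.02). DPH6;ATPBD4, 1 gene under both names, stood at 8.20 and 7.30 (-0.91, or -0.61 with the median of chromosome 15 subtracted).

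Some genes were measured both ways, in a cluster with several symbols and in a cluster of their own. Over 217 such pairs of clusters for 130 genes, the differences disagreed by a median of 0.12. They had the same sign in 82.9% of pairs and correlated across pairs with r = 0.75. The pairs share both arrays and often sequence, and are no replicates. Many of the 60 pairs with unlike names compare 1 gene, under an older and a newer name on alternate haplotypes, with itself. The median disagreement of those 60 pairs was 0.02. In 196 genes with several clusters of their own, the differences spanned a median range of 0.09, which is another measure. For copies, r was 0.87 and the median disagreement 0.16, over 100 pairs of 64 genes. For small RNAs in clusters shared with another gene, these were 0.53 and 0.36, over 16 pairs. Both correlations include far-out pairs, those of GPR89B among the copies and that of MIR21 among the small RNAs, and their ranking was not tested. Of 7 pairs called in the shared cluster and 4 called in the own cluster, 2 were called in both, and both of these were GPR89B's.

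The widest disagreement was that of MIR21, an oncogenic microRNA whose gene overlaps the 3′ end of VMP1. VMP1;MIR21 stood at 15.60 with the empty vector and 15.71 with FOXK2 (0.11), while MIR21's own cluster stood at 10.43 and 12.51 (2.09). For SARS2 the shared cluster differed by 1.15 and its own by -0.13, from 6.38 to 6.25. SNORD121B differed by -1.14 with UBAP2 and by -0.17 alone, at 5.34 and 5.17. SNORA52 differed by -0.39 with its host RPLP2 and by -1.23 alone, at 9.22 and 7.99. RNU5E-1 differed in sign, by -0.75 with RNU5D-1 and by 0.41 alone, at 13.29 and 13.70. A difference in a shared cluster therefore need not be that of each gene it names, and CYTOR, at -1.02 shared and -0.84 alone, was an example of near values.

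**Figure D5:**
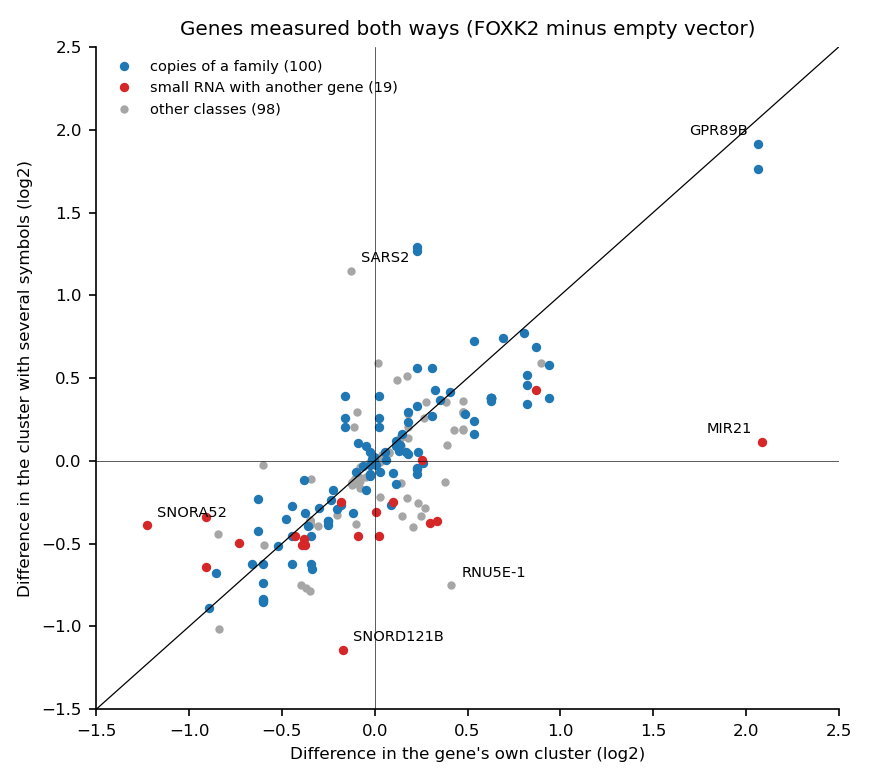
Genes with both kinds of cluster above the level limit: difference in the gene's own cluster (x axis, log2) against the difference in the cluster with several symbols (y axis, log2), 217 pairs. The line marks equal differences; colours mark copies of a family and small RNAs with another gene. GPR89B lies near the line at the top right, and MIR21, SARS2, SNORD121B, SNORA52 and RNU5E-1 lie far from it.

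Many clusters with several symbols held values identical to those of another. 201 of the 1543 clusters (13.0%) had exactly the same values on both arrays as another such cluster, in 68 groups of which 66 had a gene in common, against 3.18% of the clusters with 1 symbol. Of 192 gene sets that recur on several clusters, 68 had every cluster above the limit. Within these 68 sets the differences spanned a median of 0.03, 62 sets had 1 sign throughout and 13 were exactly equal, while 4 spanned 0.5 or more.

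A forkhead motif was looked for in the promoters of called sets, since FOXK2 binds such motifs. GTAAACA, on either strand of the 250 bases before the start, was present in 2.98% of all 35116 promoter windows. Windows covered genes of 8 of the 18 higher and 5 of the 9 lower clusters, and 12 of the 18 genes covered in higher clusters were H4 genes. The motif was found in 1 of 21 windows of genes in higher clusters, that of OSBPL6, and in 1 of 12 windows of genes in lower clusters, that of LINC00511. A match describes these letters only.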

How the data were processed

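Per the labels' protocols, total RNA of 1 sample per group was amplified and labelled with biotin. Affymetrix Expression Console is the tool that the submitters' processing notes name; its algorithm and version, and the array's build, are not stated there or in the labels. The authors' deposited values were taken as log2 values from their range, 2.13 to 19.93, and were not normalized again. Gene names came from the platform annotation, updated through RefSeq (GRCh38.p14) to find clusters that hold 1 gene under several names, to join clusters with the same genes and to match genes to clusters of their own. Host genes named MIR...HG were not counted as small RNAs, which departs from the class rule as written. A cluster was called where its difference reached 1 in either direction and its mean reached 5.24, the median of clusters with 1 symbol.

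Named clusters were the 12 largest in each direction, the 4 largest in each class, the largest of each copy family, and those of listed gene families; clusters cited for disagreement or as pairs of these were chosen after their values were seen. Members, classes and lists were chosen with earlier results of these data known. Both arrays share replicate number 1, and no test was possible. Scripts ran in Python 3.11.15 with Biopython 1.88, statsmodels 0.14.6, pandas 2.3.3 and numpy 2.4.6, and were tested on simulated data. Other scalings, level limits, fold limits and member rules were tried. The planned identity of proteins was not run, and the identity of upstream bases was a later addition, made after seeing the data.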

Additional observations from a re-analysis of the deposited data

How the results depend on the processing

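The counts of 18 clusters higher and 9 lower stayed within 1.5 times under centring of the arrays (17 and 11), removal of a loess trend on level and quantile normalization (19 and 7 each), no level limit (19 and 10) and updated symbols (17 and 9). With the chromosome's median subtracted, 4 clusters were lower. With the level limit at the upper quartile, 7 were higher and 5 lower. 5 were higher among clusters with exactly 2 symbols, and 6 with 1 value per gene set. At a fold limit of 1.5 there were 44 higher and 58 lower, at 3 there were 4 and 0. Added after the data had been seen, the running median of 51 neighbouring genes gave 22 and 6, and leaving out alternate haplotypes 11 higher. The overall median ran from -0.14, with centred arrays, to 0.0023, without a level limit. Of 95 recomputed class medians 6 moved. That of small RNAs only went from 0.07 to -0.30 per gene set and to -0.19 with exactly 2 symbols. With the level limit at the upper quartile, small RNAs with another gene went from -0.17 to -0.30 and readthrough from 0.03 to 0.19. Partial families went from -0.01 to 0.14 with the chromosome's median subtracted, and other unlike names from -0.10 to 0.0054 without a level limit. Of 23 called clusters among the 44 named in the 2 ranked parts of the rule, 17 stayed past 2-fold under all 5 scalings and none changed sign. With neighbours subtracted, NOP56 moved from -0.94 to -0.62 and PI4K2B;SEPSECS-DT from 0.54 to 0.31. Some uncalled clusters passed 2-fold under a scaling. With centred arrays these were NOP56 (-1.01) and MIR614;GPRC5A (-1.04). CCL14;CCL15;CCL15-CCL14 (1.08) did so with neighbours subtracted. With the chromosome subtracted, MRPS6;SLC5A3 (1.04) and PCSK6;LOC100507472 (1.19) did. APOBEC3B;APOBEC3B-AS1 reached -0.95 and CYTOR;MIR4435-2HG -0.94 at the least. No paired analysis was possible because each group has 1 array. Scaling moved the median of all clusters by at most 0.07. Signal over background was not known, and 1 array per group limits every value. No cluster stood at the highest value, so leaving such clusters out changed nothing.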
